A study of Homo sapiens with 6 samples.

Results

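NF-kB is a family of dimeric transcription factors that drives genes of inflammation, survival and stress. The 10 genes described here are its 5 subunit genes NFKB1, NFKB2, RELA, RELB and REL, the inhibitor genes NFKBIA, NFKBIB and NFKBIE, and TNFAIP3 and BIRC3, whose products act on the signalling upstream of it. They were taken by symbol from the 58825 genes of the deposited table, and all 10 had 1 row each. The libraries are poly(A) RNA-seq libraries of 143B cells, a human osteosarcoma line, 36 h after transfection with 80 nmol/L siRNA. The cells received a siRNA against SIGLEC15 (3 libraries) or a negative control siRNA (3 libraries), and both groups were handled with the same transfection reagent. The study asked which transcripts differ after the SIGLEC15 siRNA. The labels do not say whether each library stands for its own culture, and the p-values reflect library-to-library spread that may be technical.

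In resting cells the inhibitors of the IkB family hold NF-kB dimers in the cytoplasm. Signals from receptors such as those for TNF and interleukin 1 activate the IkB kinase, the inhibitors are degraded, and the dimers enter the nucleus. Several of the genes that NF-kB then activates encode its own inhibitors and subunits, so that their transcripts are commonly read as a record of the activity of the pathway. A second, slower route through the kinase MAP3K14 leads to processing of the NFKB2 product and to its dimers with RELB.

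After the SIGLEC15 siRNA, TNFAIP3, BIRC3, NFKBIA, RELB and NFKBIE rose by between 1.53-fold and 2.01-fold, and none of the 10 genes was called lower. NFKB2 and NFKBIB had similar fold changes of 1.51 and 1.53 but did not pass the test, and NFKB1 and REL differed by less. RELA, the main activating subunit, had a log2 fold change of -0.52 that did not pass either. Thus 5 of 10 genes were called higher at an adjusted p under 0.05, where 2.22% of the 18910 tested genes were, and 0 of 10 were called lower, where 2.43% of tested genes were. DESeq2 also called 0 members lower. With 10 genes, a count of 0 lower cannot be set against the share over all tested genes. At an unadjusted p under 0.05 in the edgeR test, 0 members were lower and 7 higher. Of the 18910 tested genes, 3610 were under that cut in either direction. In 7 of the 10 genes all SIGLEC15 siRNA libraries lay above all control libraries, which was the case for 12.9% of tested genes, and in 0 genes they all lay below, as for 13.7% of tested genes. Changes in RNA per cell and in the make-up of the culture cannot be told apart in such bulk libraries.

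SIGLEC15 itself had 12, 8 and 6 counts in the SIGLEC15 siRNA libraries and 12, 10 and 22 counts in the control libraries. Its lower level did not pass the test (log2 fold change -0.82, SE 0.598, edgeR adjusted p = 0.529). A two-sided exact permutation of the 6 libraries gave p = 0.2 for log2(CPM + 1), in a design that can reach no less than 0.1. The differences below are therefore between cells given these siRNAs, and the level of the target transcript was not shown to differ. Library totals were 57966691 to 67655254 counts, and the 10 genes had between 285 and 5371 counts in each library. SIGLEC15 siRNA replicate 1 and control replicate 3 lay apart from the others on the second principal component, which held 20% of the variance, and results without both are given beside the counts they change. The markers of the labelled cells summed to 3293 to 3527 CPM in the SIGLEC15 siRNA libraries and to 3384 to 3553 CPM in the control libraries. VIM and SPARC made up most of this, and THY1 had no counts. SPARC, a bone matrix gene, rose to 604 CPM ± 7.68 in the SIGLEC15 siRNA group against 346 CPM ± 6.34 in the control group (SD, n = 3 each; edgeR adjusted p = 0.00137), and COL1A1 rose too. VIM lay lower in all SIGLEC15 siRNA libraries, at 2692 CPM against 2969 CPM in the control group, without passing the test (adjusted p = 0.247). CDH2 (0.554) and ALPL (0.762), with negative log2 fold changes, and RUNX2 (0.113), with a positive one, did not pass either. The part of these markers in the results was not tested. The 5 haematopoietic markers summed to 28.03 to 47.98 CPM in the SIGLEC15 siRNA libraries and 41.93 to 56.44 CPM in the control libraries, nearly all of it CD68, and PTPRC, LYZ and CD3E had no counts.

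The start regions of these genes are shown because NF-kB binding to its own genes is the textbook basis of the feedback. RefSeq start regions of 300 bases (250 before and 50 after the start site, build GRCh38.p14) were found for 8 of the 10 genes, 13 regions in all; RELB and NFKBIE were not among them. They were searched on both strands for the kappa B consensus, the 10-base motif that NF-kB dimers bind, in a form chosen after other forms had been tried on these regions. At least 1 match was present in 7 of the 8 genes, in all but RELA, and in 5.91% of the 35116 start regions of the reference. Counted per gene it was in 7.09% of 27305 genes. Overlapping matches on opposite strands count separately, which gave 16 matches. Counted from the start site, the first bases of the matches lay between -199 and -21. Capitals mark bases inside a match in the regions below, each given 5′ to 3′ on the strand of its gene.

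The whole start regions of the 3 genes whose products restrain or modify the signal are as follows, for NFKBIA at chr14:35404700-35404999 on the minus strand, TNFAIP3 at chr6:137867009-137867308 and BIRC3 at chr11:102317234-102317533 on the plus strand.
NFKBIA: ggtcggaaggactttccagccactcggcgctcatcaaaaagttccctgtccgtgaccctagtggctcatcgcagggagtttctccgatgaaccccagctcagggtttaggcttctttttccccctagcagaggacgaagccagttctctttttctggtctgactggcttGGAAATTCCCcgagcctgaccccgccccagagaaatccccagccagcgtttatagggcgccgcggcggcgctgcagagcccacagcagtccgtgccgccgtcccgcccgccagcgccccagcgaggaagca
TNFAIP3: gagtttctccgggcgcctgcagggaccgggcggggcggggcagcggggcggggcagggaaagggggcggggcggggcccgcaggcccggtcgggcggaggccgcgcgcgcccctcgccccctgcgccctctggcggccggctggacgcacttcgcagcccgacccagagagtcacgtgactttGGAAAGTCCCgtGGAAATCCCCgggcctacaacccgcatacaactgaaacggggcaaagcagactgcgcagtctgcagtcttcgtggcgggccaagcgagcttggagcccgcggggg
BIRC3: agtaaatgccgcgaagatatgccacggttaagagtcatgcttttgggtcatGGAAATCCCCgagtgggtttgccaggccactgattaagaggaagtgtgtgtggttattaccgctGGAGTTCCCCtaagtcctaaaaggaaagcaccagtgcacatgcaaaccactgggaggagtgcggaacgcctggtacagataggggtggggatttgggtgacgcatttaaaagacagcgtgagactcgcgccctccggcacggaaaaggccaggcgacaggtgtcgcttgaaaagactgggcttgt

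Shorter windows around the match nearest to the start site show the other genes with a match, NFKB1 at chr4:102501300-102501329, NFKB2 at chr10:102395674-102395703, REL at chr2:60881517-60881547 and NFKBIB at chr19:38899931-38899961, all on the plus strand.
NFKB1: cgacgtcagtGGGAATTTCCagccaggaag
NFKB2: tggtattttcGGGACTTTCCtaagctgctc
REL: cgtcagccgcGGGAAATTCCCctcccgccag
NFKBIB: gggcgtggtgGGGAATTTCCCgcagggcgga

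The same 10 bases, GGGAATTTCC, were read on either strand in NFKB1, REL, NFKBIA and NFKBIB, that is in 4 of 8 genes, and in 0.145% of all start regions (51 of 35116). Counted per gene, this sequence was in 0.179% of genes (49 of 27305). It was singled out after the matches were seen. TNFAIP3 held a pair of matches, which began at -67 and -55 from its start site, and BIRC3 held matches at -199 and -135. For NFKB1, NFKB2 and NFKBIB, which have several start sites in the reference, only some of the regions held a match. The table gives 1 value per gene, so which start site was used in these cells was not measured. Of these 4 genes NFKBIA was called higher, and NFKB1, REL and NFKBIB did not pass the test.

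**Figure D1:**
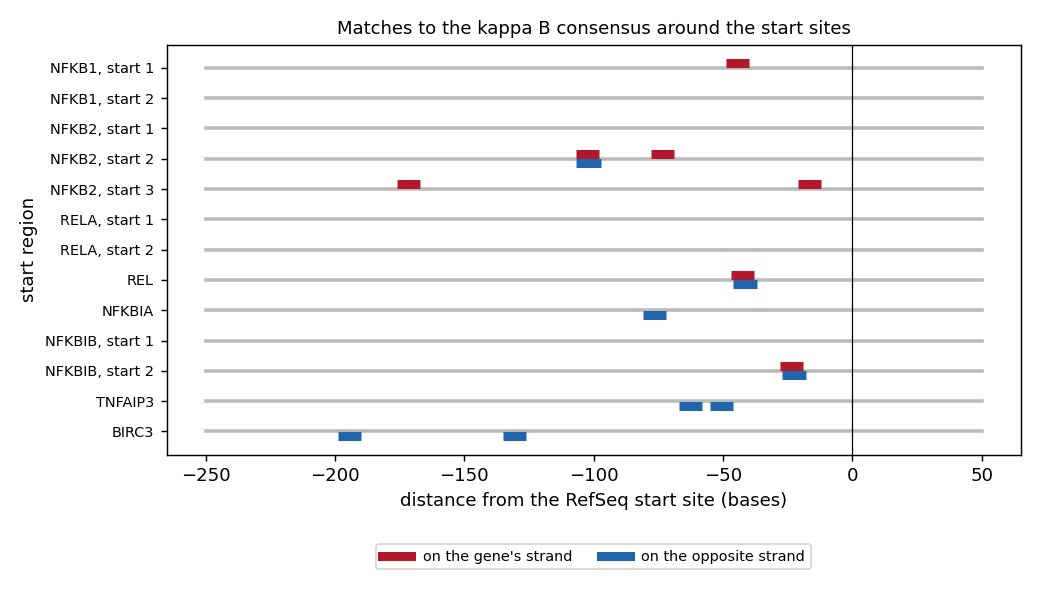
Position of matches to the kappa B consensus (bars) in 13 start regions of 8 genes, in bases from the RefSeq start site. Matches on the strand of the gene are drawn above the line and those on the opposite strand below it; the 2 regions of RELA have none.

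Among the feedback inhibitors, TNFAIP3 (ENSG00000118503, chromosome 6, 137867214 to 137883312, plus strand) encodes a ubiquitin-editing enzyme that shuts off signalling to the IkB kinase. Its level was 19.2, 19.6 and 17.6 CPM in SIGLEC15 siRNA replicates 1, 2 and 3, against 10.4, 8.79 and 8.91 CPM in control replicates 1, 2 and 3. The groups lay far apart, with a gap between them larger than the range within either. The log2 fold change was 1.01 (SE 0.115, 95% interval 0.73 to 1.28, edgeR adjusted p = 0.00766), and 2.65% of tested genes had a higher log2 fold change. It was the only member still called without each of the 6 libraries in turn.

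NFKBIA (ENSG00000100906, chromosome 14, 35401511 to 35404746, minus strand) encodes IkB alpha, the inhibitor that is degraded and made again within a round of NF-kB activation. It had 48.0, 43.0 and 47.8 CPM in the SIGLEC15 siRNA libraries and 27.5, 30.2 and 24.7 CPM in the control libraries. Again every SIGLEC15 siRNA library was above every control library. The rise was 1.68-fold (log2 fold change 0.75, SE 0.103, edgeR adjusted p = 0.0134), and its call ended without SIGLEC15 siRNA replicate 1 (adjusted p = 0.0523) or without control replicate 1 (adjusted p = 0.0546).

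NFKBIE (ENSG00000146232, chromosome 6, 44258166 to 44265788, minus strand), which encodes IkB epsilon, had 16.3, 14.2 and 14.0 CPM in the SIGLEC15 siRNA libraries, against 9.91, 8.51 and 10.6 CPM in the control libraries. It rose 1.53-fold and stood at the threshold (log2 fold change 0.61, SE 0.129, edgeR adjusted p = 0.0491). NFKBIB (ENSG00000104825, chromosome 19, 38899700 to 38908893, plus strand), which encodes IkB beta, had 53.2, 50.2 and 43.9 CPM in the SIGLEC15 siRNA libraries and 26.4, 41.8 and 28.3 CPM in the control libraries. Control replicate 2 lay close to the SIGLEC15 siRNA libraries, and the log2 fold change of 0.61 had a wider error (SE 0.186, edgeR adjusted p = 0.134). Without control replicate 2 NFKBIB was called, with a log2 fold change of 0.84 (adjusted p = 0.043). Of the 3 IkB genes, 2 therefore rose, and the remaining one had a 95% interval of its log2 fold change of 0.17 to 1.05.

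BIRC3 (ENSG00000023445, chromosome 11, 102317450 to 102339394, plus strand) encodes a ubiquitin ligase of the inhibitor of apoptosis family that acts at TNF receptors and, with its close relative BIRC2, keeps MAP3K14 low. It had 19.7, 23.9 and 20.3 CPM in the SIGLEC15 siRNA libraries and 13.0, 7.82 and 11.2 CPM in the control libraries. The groups did not overlap, though the control libraries spread widely. The rise was 2.00-fold (log2 fold change 1.00, SE 0.199, edgeR adjusted p = 0.042).

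Of the subunits, RELB (ENSG00000104856, chromosome 19, 45001449 to 45038198, plus strand), the partner in the slower route, was the one that rose. It had 21.0, 22.0 and 16.5 CPM in the SIGLEC15 siRNA libraries, against 12.1, 11.5 and 12.6 CPM in the control libraries. All SIGLEC15 siRNA libraries were above the controls, replicate 3 by the least. The log2 fold change was 0.71 (SE 0.134, edgeR adjusted p = 0.0358).

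NFKB2 (ENSG00000077150, chromosome 10, 102394110 to 102402524, plus strand) encodes the precursor that is processed to the partner of RELB. It had 81.3, 76.1 and 61.2 CPM in the SIGLEC15 siRNA libraries and 55.2, 45.1 and 44.6 CPM in the control libraries. The groups did not overlap, and yet the log2 fold change of 0.59 did not pass (SE 0.136, 95% interval 0.27 to 0.92, edgeR adjusted p = 0.0635). NFKB1 (ENSG00000109320, chromosome 4, 102501331 to 102617302, plus strand), the corresponding precursor of the faster route, had 80.2, 77.7 and 74.9 CPM in the SIGLEC15 siRNA libraries and 75.5, 66.1 and 70.8 CPM in the control libraries. These values overlapped, and the log2 fold change was 0.13 (95% interval -0.04 to 0.31, edgeR adjusted p = 0.401).

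RELA (ENSG00000173039, chromosome 11, 65653597 to 65663090, minus strand), the activating partner in the most common dimer, had 38.3, 61.0 and 33.6 CPM in the SIGLEC15 siRNA libraries and 70.0, 59.6 and 60.9 CPM in the control libraries. SIGLEC15 siRNA replicate 2 lay within the control range, and replicates 1 and 3 lay well below it. The log2 fold change of -0.52 had a 95% interval of -1.05 to 0.01 (edgeR adjusted p = 0.269). Without SIGLEC15 siRNA replicate 2 it was -0.82 and was called (adjusted p = 0.0455). A single library thus decided whether RELA counted as lower. REL (ENSG00000162924, chromosome 2, 60881521 to 60931610, plus strand), a subunit best known from lymphoid cells, had 4.66, 4.84 and 11.2 CPM in the SIGLEC15 siRNA libraries and 4.97, 8.73 and 6.21 CPM in the control libraries. Its libraries scattered in both groups, and the log2 fold change of 0.06 (95% interval -0.87 to 0.99, edgeR adjusted p = 0.959) changed sign when single libraries were left out.

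**Figure D2:**
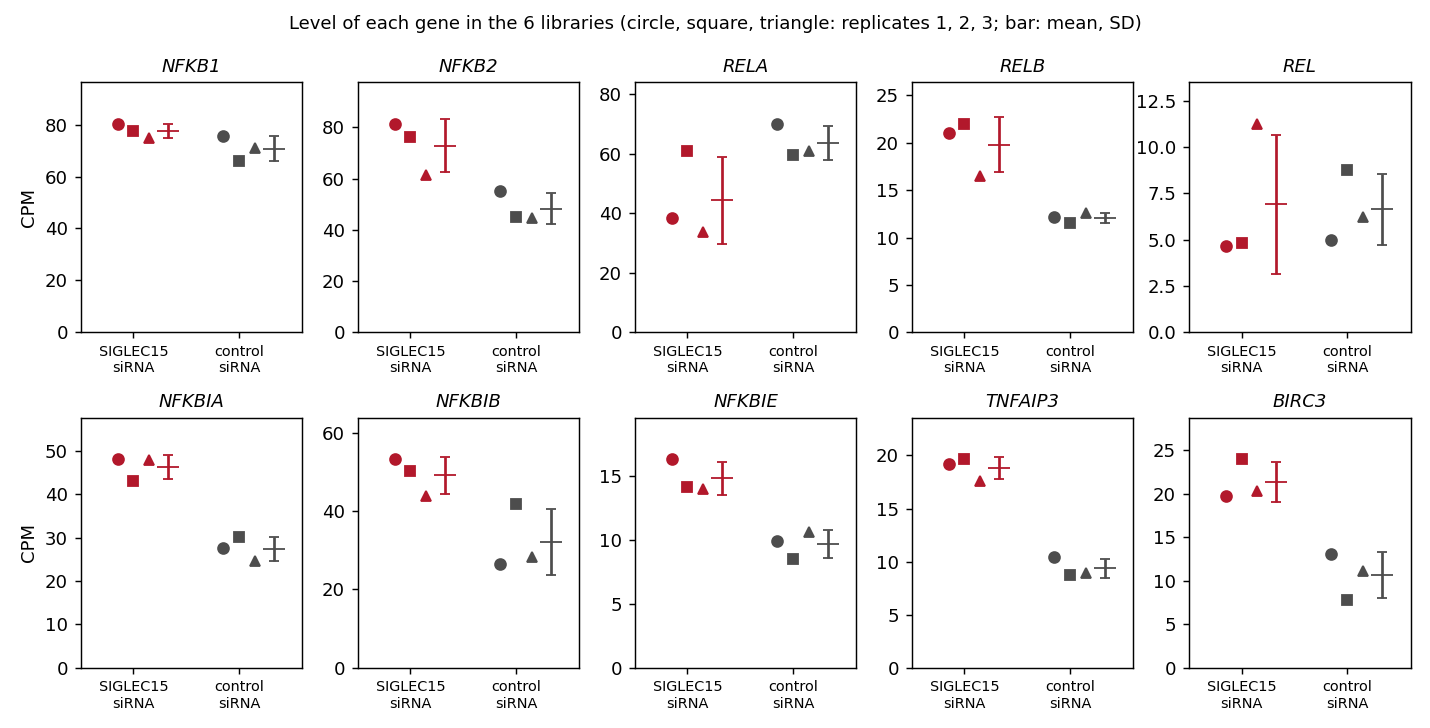
Level of each gene in CPM (y axes from 0, one scale per gene) in the 3 SIGLEC15 siRNA libraries (red) and the 3 control libraries (grey), with the mean and SD beside the points. TNFAIP3, with 17.6 to 19.6 CPM against 8.79 to 10.4 CPM, is well separated, and RELA and REL have SIGLEC15 siRNA libraries that disagree with each other.

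**Figure D3:**
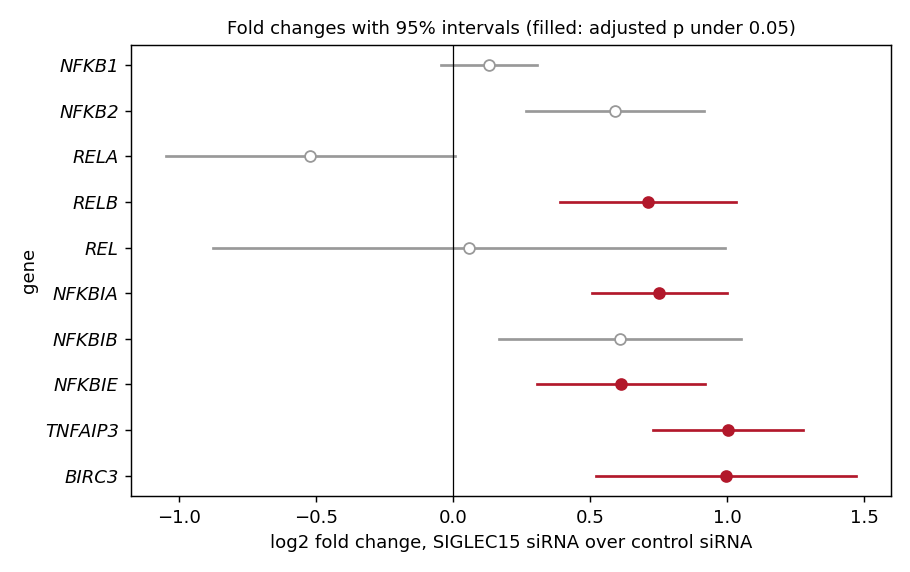
Log2 fold change of SIGLEC15 siRNA over control siRNA for the 10 genes (points) with 95% intervals from edgeR (lines). Filled points are the 5 genes with an adjusted p under 0.05, TNFAIP3, BIRC3, NFKBIA, RELB and NFKBIE.

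The number of called members moved with the libraries used. Without SIGLEC15 siRNA replicates 1, 2 and 3 it was 1, 3 and 3, and without control replicates 1, 2 and 3 it was 1, 3 and 2, with fewer libraries in each fit. The 3 without SIGLEC15 siRNA replicate 2 were NFKBIA and TNFAIP3, higher, and RELA, lower. In these fits 260 to 431 of 19549 to 19608 tested genes were called in the whole table. Left out together, SIGLEC15 siRNA replicate 1 and control replicate 3, the libraries apart on the second component, left 0 called members among the 70 genes then called in the whole table. At an unadjusted p under 0.05, 6 members were then higher, and the number of all genes under that cut in this fit is not given. Leaving out both libraries was chosen after seeing the data. RELB was called in 1 of the 6 fits without a library, and NFKBIE and BIRC3 in none of them. DESeq2, run on the same counts, called 7 members higher, NFKB2 and NFKBIB in addition, where it called 8.62% of tested genes higher and 8.5% lower. The sign of the fold change was the same under all alternatives for the 9 genes other than REL.

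Some of the 10 genes overlap others, and use of strand in the counting is not given in the sources used here. TNFAIP3 overlaps an antisense gene of at most 34 counts per library, and RELA one of at most 51. NFKBIB overlaps the start of SIRT2 by 163 bases on the other strand. SIRT2 had 14.6 CPM ± 0.295 in the SIGLEC15 siRNA group and 15.8 CPM ± 1.64 in the control group (SD, n = 3 each). REL shares 5702 bases on its own strand with AC010733, a gene of 173 to 739 counts against the 285 to 754 counts of REL, so the levels of REL are uncertain.

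Levels of different genes were compared per length, as FPKM. In the SIGLEC15 siRNA group NFKBIB (17.7 FPKM ± 1.72) and NFKBIA (16.4 ± 0.732) were highest and overlapped. They were followed by NFKB2 (13.0 ± 1.87), NFKB1 (10.3 ± 0.363) and RELA (6.83 ± 2.39), each step of which was without overlap. RELA overlapped RELB (5.52 ± 0.867), and RELB overlapped NFKBIE (4.82 ± 0.368). TNFAIP3 (3.14 ± 0.211), BIRC3 (2.38 ± 0.3) and REL (0.44 ± 0.237; SD, n = 3 throughout) came below, each apart from the next.

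In the control group NFKBIB (11.6 FPKM ± 3.04), RELA (9.76 ± 0.951), NFKBIA (9.71 ± 1.05), NFKB1 (9.35 ± 0.659) and NFKB2 (8.60 ± 1.15) formed 1 overlapping set. RELB (3.36 ± 0.131) and NFKBIE (3.14 ± 0.332) overlapped each other, as did TNFAIP3 (1.55 ± 0.166) and BIRC3 (1.19 ± 0.298). REL (0.423 ± 0.123; SD, n = 3 throughout) was lowest. RELA thus lay within the leading set in the control group and below NFKBIB, NFKBIA, NFKB2 and NFKB1 in the SIGLEC15 siRNA group, where replicate 2 alone was within its control range, at 9.57 FPKM.

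The make-up of the subunit transcripts differed between the groups in every library for RELB, NFKB2 and RELA. RELB took 15.7%, 15.4% and 14.7% of the summed FPKM of the 5 subunits in the SIGLEC15 siRNA libraries, against 9.87%, 10.8% and 11.5% in the control libraries. NFKB2 took 39%, 34.2% and 34.9% in the SIGLEC15 siRNA libraries and 28.7%, 27% and 26% in the control libraries. RELA took 15.8%, 23.7% and 16.5% in the SIGLEC15 siRNA libraries and 31.4%, 30.9% and 30.6% in the control libraries. The groups did not overlap for any of these shares, although RELA alone overlapped in its CPM. Shares within a sum depend on each other, and they are given as a description with no test.

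The FPKM ratio of RELB to RELA was 0.993, 0.652 and 0.888 in the SIGLEC15 siRNA libraries, against 0.314, 0.35 and 0.374 in the control libraries. The ratio of NFKBIA to RELA was 2.89, 1.62 and 3.28 in the SIGLEC15 siRNA libraries and 0.904, 1.17 and 0.931 in the control libraries. In both ratios SIGLEC15 siRNA replicate 2 was nearest to the controls and still above them. The 3 IkB genes together summed to 40.9, 38.7 and 37.1 FPKM in the SIGLEC15 siRNA libraries, against 22.7, 28.6 and 22.1 FPKM in the control libraries. Set against the sum of the 5 subunits this was a ratio of 1.12, 0.958 and 1.19 in the SIGLEC15 siRNA libraries and 0.657, 0.962 and 0.732 in the control libraries, which overlap through control replicate 2.

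**Figure D4:**
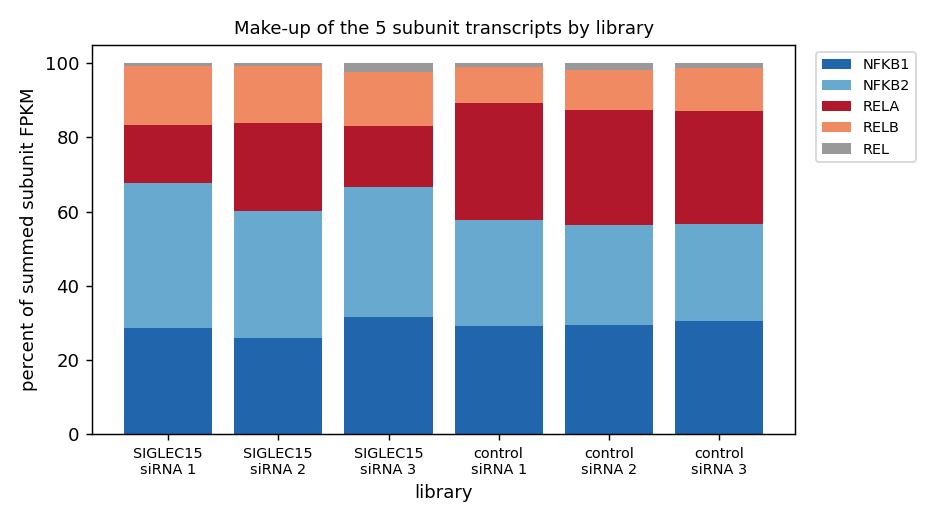
Share of each subunit transcript in the summed FPKM of the 5 subunits, one stacked bar per library, SIGLEC15 siRNA libraries on the left. RELA takes 15.8% to 23.7% in the SIGLEC15 siRNA libraries and 30.6% to 31.4% in the control libraries.

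Some further regulators of the pathway also rose. Of 14 tested genes of other inhibitors and ubiquitin editors, 3 rose, 0 fell and 11 did not pass in edgeR (0 lower at an unadjusted p under 0.05 and 0 lower by DESeq2), where 4.65% of all tested genes were called in either direction. The median log2 fold change of the list was 0.247, against -0.0064 over all tested genes and 0.612 over the 10 members. BCL3, an atypical IkB protein that binds dimers in the nucleus, was at 12.2 CPM ± 2.29 in the SIGLEC15 siRNA group and 4.18 CPM ± 0.574 in the control group (SD, n = 3 each; log2 fold change 1.54, edgeR adjusted p = 0.00883). NFKBIZ, another nuclear IkB protein, was at 13.4 CPM ± 4.81 in the SIGLEC15 siRNA group and 5.40 CPM ± 0.43 in the control group (log2 fold change 1.31, adjusted p = 0.0369), its SIGLEC15 siRNA replicate 2 being higher than the other libraries. NFKBIZ kept its call without that replicate and lost it without each of the other 5 libraries (adjusted p = 0.0537 to 0.121), and BCL3 lost its call without control replicate 2. None of the 3 genes was called without both libraries apart on the second component. ZC3H12A, an RNase that degrades cytokine mRNAs, was at 16.2 CPM ± 0.695 in the SIGLEC15 siRNA group and 7.22 CPM ± 1.13 in the control group (log2 fold change 1.17, adjusted p = 0.00856). Of the 10 called genes named from these lists, 3 had a match to the kappa B consensus in a start region, BCL3, NFKBIZ and IRF1. ZC3H12A, PTGS2, ICAM1, BCL2A1, IL1B, RIPK1 and TRAF5 had none there. A match was present in 7.09% of all 27305 genes, with the form of the consensus chosen as described above. The deubiquitinase CYLD and TNIP1, a partner of the TNFAIP3 product, did not pass (adjusted p = 0.381 and 0.0938).

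The kinases and adaptors that carry the signal gave calls in both directions, for 10.5% of the list against 4.65% of all tested genes. TRAF5 rose and RIPK1 fell among 19 tested genes, and the other 17 missed the threshold. TRAF2, among those 17, stood just past it (edgeR adjusted p = 0.0507). The list had a median of 0.128 on the log2 scale. For TRAF5, an adaptor of TNF receptors, the rise was 1.35-fold (log2 fold change 0.43, SE 0.0896, edgeR adjusted p = 0.0475), and this call was lost without each of the 6 libraries in turn (adjusted p = 0.0887 to 0.168). RIPK1, the kinase that forms a platform at the TNF receptor, fell by 0.60 on the log2 scale, to 38.9 CPM ± 2.84 in the SIGLEC15 siRNA group against 58.9 CPM ± 0.583 in the control group (SD, n = 3 each; adjusted p = 0.0119). RIPK1 lost its call without replicate 2 of either group, and neither gene was called without the pair of libraries apart on the second component. The 3 core genes of the IkB kinase, CHUK, IKBKB and IKBKG, did not pass (adjusted p = 0.533, 0.659 and 0.238).

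Genes that control the slower route gave 0 calls in either direction among 8 tested in the main edgeR fit. This number is too small to set against the 4.65% of all tested genes. Of these, 2 had an unadjusted p under 0.05, the adaptors TRAF2 and TRAF3, against 3610 of all 18910 tested genes. DESeq2 called 2 genes of the list, BIRC2 and TRAF2, both higher, where it called 8.62% of its tested genes higher. TRAF3 was not among them. MAP3K14, the kinase of that route, was at 18.5, 14.2 and 17.3 CPM in the SIGLEC15 siRNA libraries and 10.6, 26.3 and 10.0 CPM in the control libraries, where replicate 2 was highest (edgeR adjusted p = 0.934). TRAF3, which targets MAP3K14 for degradation, had 35.9, 107 and 28.7 CPM in the SIGLEC15 siRNA libraries against 22.9, 19.8 and 19.7 CPM in the control libraries. Its groups did not overlap, but SIGLEC15 siRNA replicate 2, also the library with high RELA, stood far above the rest (log2 fold change 1.46, SE 0.485, edgeR adjusted p = 0.163).

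Target genes of NF-kB outside the 10 members were mixed. Among 31 tested genes 5 were called higher, 3 were called lower and 23 missed the threshold, around a median of 0.429 on the log2 scale. That is 25.8% called, where 4.65% of all tested genes were. Without SIGLEC15 siRNA replicates 1, 2 and 3 the genes called higher were 2, 2 and 3, and without control replicates 1, 2 and 3 they were 3, 1 and 2; PTGS2 was among them each time. In each of these fits BCL2A1 was the 1 gene called lower, and without both libraries apart on the second component 0 were called. IRF1, an interferon regulatory factor, rose 1.81-fold (log2 fold change 0.85, SE 0.105, edgeR adjusted p = 0.00941). PTGS2, the inducible cyclooxygenase, and the adhesion molecule ICAM1 had log2 fold changes of 1.22 and 0.76. CD83 and the tissue factor gene F3, which are named after their values were seen, also rose (log2 fold changes 0.73 and 0.53). Neither CD83 nor F3 was called in any fit without 1 library. Among these fits ICAM1 kept its call only without SIGLEC15 siRNA replicate 3 or without control replicate 1, and IRF1 lost its call without control replicate 2. The target genes that fell were BCL2A1, a survival factor of the BCL2 family, with a log2 fold change of -1.61 (SE 0.184, adjusted p = 0.00766), and the cytokines IL1B and LIF, with -1.02 and -0.82; LIF is named after its values were seen. The chemokine CXCL8 was at 67.1 CPM ± 6.4 in the SIGLEC15 siRNA group and 66.5 CPM ± 3.48 in the control group (SD, n = 3 each, 95% interval of the log2 fold change -0.20 to 0.23). The other tested chemokines of the list, CCL2, CXCL1, CXCL2, CXCL3, CXCL5 and CXCL6, had positive log2 fold changes and were not called in edgeR. CXCL5 (SE 1.31) and CXCL6 (SE 1.79) scattered within both groups, so their signs are uncertain. CXCL6 had 47, 53 and 0 counts in the SIGLEC15 siRNA libraries and 0, 0 and 31 counts in the control libraries. DESeq2 called 10 target genes higher and 5 lower, where it called 8.62% and 8.5% of its tested genes. CCL2 and CXCL1 were among the higher ones. IL1A and BCL2L1 were called lower in addition to BCL2A1, IL1B and LIF.

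**Figure D5:**
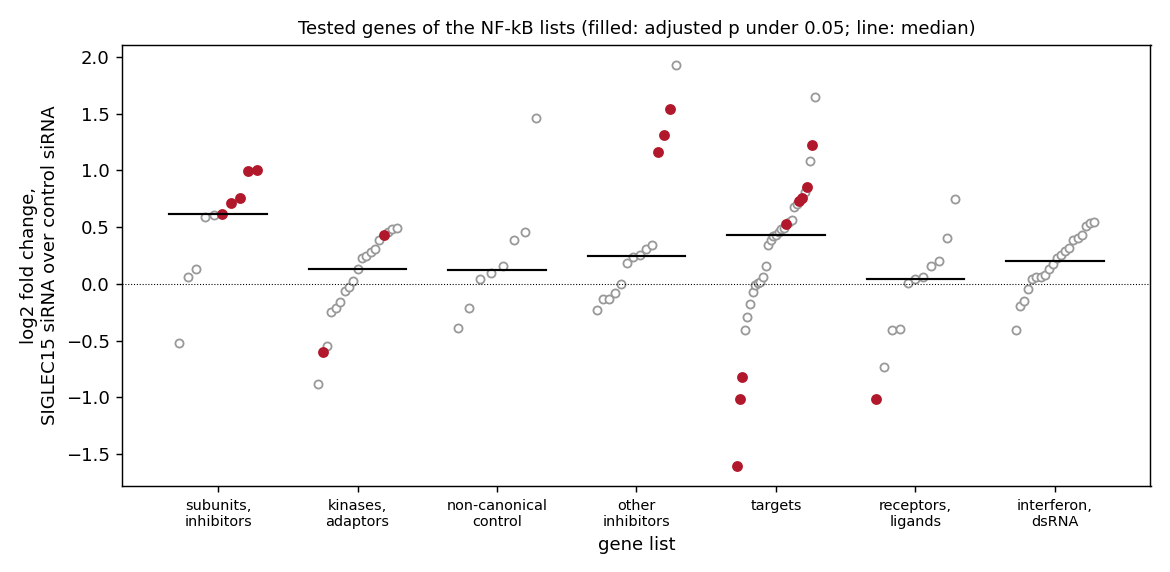
Log2 fold change of SIGLEC15 siRNA over control siRNA of each tested gene in the 10 members and in 6 lists of the pathway (points, sorted within a list), with the median of each list as a line. Filled points have an adjusted p under 0.05; the medians run between 0.0453 for receptors and ligands and 0.612 for the members.

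The genes whose levels ran most like those of the inhibitors over the 6 libraries were taken among 11423 genes of at least 5 CPM. For TNFAIP3 they were AHDC1 (Pearson r = 0.999), ZC3H12A (0.998) and PTDSS1 (0.997), and for NFKBIA they were TINAGL1 (0.995), TNFAIP1 (0.995) and DNAJB9 (0.994). The libraries fall into 2 groups, so a gene that differs between the groups scores high, and the values are a description with no p. ZC3H12A also belongs to the list of other inhibitors above.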

How the data were processed

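The authors deposited 1 table with whole-number counts per gene and library and, beside them, FPKM values (fragments per kilobase and depth), per the file headers; genes without counts carry small fill-in FPKM values. HISAT, StringTie and edgeR are listed, without versions, in the submitters' processing notes. For build, annotation, strand use and counting, the answer is not given in the sources used here. Coordinates of the 10 genes lay within 26 bases of GENCODE 29 (GRCh38). Counts were fitted with edgeR 4.0.16 in R 4.3.3 over all 6 libraries: filterByExpr (minimum count 10, minimum total 15), which kept 18910 genes and all 10 members, then TMM scaling and a quasi-likelihood test (SIGLEC15 siRNA over control siRNA) with Benjamini-Hochberg adjustment over all tested genes, called under 0.05. CPM use TMM-scaled library sizes; SE is the log2 fold change over the square root of F. Depth was 57966691 to 67655254 counts; 0 sample columns were unmatched. All library pairs differed by more than counting noise (chi-square per degree of freedom at least 55.22). The test was tried on simulated data.

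Named are all 10 members, SIGLEC15, up to 4 called genes with the smallest p of each list, and the 3 genes most alike to NFKBIA and to TNFAIP3; other names were added after values were seen. Members and lists were chosen with earlier results of these data known. Of the listed symbols, N4BP1, NFKBID, RIGI and SP7 had no row of that name; RIGI is listed as DDX58. SOD2 has 2 rows, of which 1 was tested. Alternatives were median-of-ratios size factors, no filter beyond 1 count, a mean FPKM of at least 5, DESeq2 1.42.0, a block for replicate number, leaving out each library, limma-trend (limma 3.58.1) for genes averaging 1 FPKM or more at pseudocounts of 1 and 0.1 before log2, and, added after seeing the data, both libraries apart on the second component left out.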

Additional observations from a re-analysis of the deposited data

How the results depend on the processing

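Median-of-ratios scaling and limma-trend with either pseudocount kept the 5 called members, and the whole-table counts (879 called, 419 higher, 460 lower) stayed within 1.5 times there and under both filters. With no filter beyond 1 count, 2 members were called, and with a mean FPKM of at least 5, which tests 5 members, 1 was called. Of the 36 list genes tested at a mean FPKM of at least 5, 5 were higher and 3 lower. In the main fit it was 9 and 4 of 94. DESeq2 called 2917 of 17043 tested genes (1469 higher, 1448 lower). Of 92 list genes it tested, 21 were higher and 7 lower, against 9 and 4 of 94 in the main fit. Under a replicate block 50 genes were called (15 higher, 35 lower), with 0 members and 0 and 0 list genes. At an unadjusted p under 0.05, 7 members were higher and 1 lower, and the number of all genes under that cut in this fit is not given. Deviations of libraries with equal numbers were not shared (r = -0.0712, 0.00662 and -0.117), so the replicate number was not taken as a pairing. REL reversed under the block (log2 fold change -0.0289), without SIGLEC15 siRNA replicate 3 (-0.48) and without control replicate 1 (-0.11), its range without single libraries being -0.482 to 0.303. Without both libraries apart on the second component, 70 genes (27 higher, 43 lower), 0 members and 0 and 0 list genes were called. Without each library in turn the counts were 260 to 431 genes (108 to 189 higher, 151 to 242 lower), 1 to 3 members (1 to 3 higher, 0 to 1 lower), and 2 to 5 higher and 1 to 2 lower list genes. SIGLEC15 on log2(FPKM + 1) gave p = 0.2 again (exact permutation test). The causes of these shifts were not tested, beyond the smaller number of libraries or genes in a fit. SIGLEC15, with at most 22 counts in a library, had an SE of 0.598, so a moderate change in its level was not detectable at this depth.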

Other observations

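Receptors and ligands upstream of NF-kB gave 1 call among 11 tested genes, IL1B, which fell, where 4.65% of all tested genes were called. IL1B lost its call whichever of the 6 libraries was left out (edgeR adjusted p = 0.0705 to 0.0944). It was also not called without both libraries apart on the second component (edgeR adjusted p = 0.181). Of the list 0 rose in edgeR (1 at an unadjusted p under 0.05, where 3610 of 18910 tested genes were in either direction, and 1 by DESeq2). The median log2 fold change was 0.0453. IL1A, a close relative of IL1B, was at 40.7 CPM ± 1.58 in the SIGLEC15 siRNA group and 53.9 CPM ± 4.3 in the control group (SD, n = 3 each), at an edgeR adjusted p of 0.0502. It was called lower by DESeq2, in both limma-trend fits and with a mean FPKM of at least 5. It was not called in any fit without 1 library. The receptor IL1R1 was at 5.03 CPM ± 0.475 in the SIGLEC15 siRNA group and 2.99 CPM ± 0.756 in the control group, with an adjusted p of 0.127. TNF was read near the detection limit, with 0, 12 and 17 counts in the SIGLEC15 siRNA libraries and 0 counts in each control library. A count of 0 allows up to 3 counts, or between 0.0484 and 0.0508 CPM across the controls, and this covers counting error only. TNF did not pass the filter and was not tested.

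Genes of the interferon and double-stranded RNA response, which transfected RNA can set off, gave 0 calls among 20 tested with edgeR, where 4.65% of all tested genes were called. At an unadjusted p under 0.05, 5 were higher and 1 was lower. Of all 18910 tested genes, 3610 were under that cut in either direction. DESeq2 called 4 genes of the list higher and 1 lower, where it called 8.62% and 8.5% of its tested genes. Their median log2 fold change was 0.2. Their summed level was 383.2 to 398.7 CPM in the SIGLEC15 siRNA libraries and 375.7 to 389.8 CPM in the control libraries. IFNB1 and IFNL1 had no counts. IFIT3 was at 7.6 CPM ± 0.126 in the SIGLEC15 siRNA group and 5.35 CPM ± 0.472 in the control group (SD, n = 3 each), with an adjusted p of 0.0776. The part of this response in the levels of the NF-kB genes was not tested.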
